A study of Mus musculus with 10 samples.

Results

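H3K27me3 and EZH2 ChIP-seq was carried out in mouse E14 embryonic stem (ES) cells, and the regions described here are the 538 widest blocks of H3K27me3 in the control cells. A region was selected on its width in the first control library. It is a broad peak of at least 10000 bp on chromosomes 1 to 19 that also overlaps a peak of the second control library by at least 1 bp. These 538 wide peaks are 5.40% of the 9969 peaks shared by the control libraries, out of 12100 autosomal peaks in the first control library and they span 9.52 Mb. Because their width chose them, that width is a description and not a result.

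Both genotypes are E14 ES cells of the strain that the labels write as 12910la. Control cells are labelled wild-type, and ex14D-Ezh2 cells are labelled as an Ezh2 knock-out of exon 14. In the study's methods an in/del made with CRISPR-Cas9 in exon 14 shifts the reading frame of the isoform that contains this exon, so that only the spliced isoform without it (ex14D-EZH2) stays functional. Each antibody has 2 libraries per genotype, each genotype has 1 input, and the labels do not say whether the 2 libraries come from separate clones or cultures, so p-values measure the spread between these libraries, which may be technical. The genotype cannot be read from ChIP-seq counts.

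EZH2 is the catalytic subunit of Polycomb repressive complex 2, which methylates lysine 27 of histone H3. In ES cells the trimethylated form marks CpG-rich promoters of developmental regulators that are silent or expressed at a low level. EZH2 concentrates over the CpG-rich parts of such regions, and H3K27me3 can extend from there into the flanks. The broadest H3K27me3 blocks of ES cells are known from the Hox clusters and from genes of lineage-determining transcription factors.

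The wide peaks had a median width of 14709 bp, with quartiles at 11692 and 19558 bp, and 129 of them reached 20000 bp. Just inside the threshold were peaks of 10000, 10032 and 10040 bp, and just outside were peaks of 9993, 9993 and 9998 bp. The widest was the HoxC cluster (chr15:102907500-103044201, 136702 bp), followed by HoxA (chr6:52146569-52278001, 131433 bp) and HoxB (chr11:96249975-96379823, 129849 bp). HoxD lay in 2 wide peaks, one from Evx2 to Hoxd3 (chr2:74646751-74719408) and one from Hoxd4 to Hoxd1 (chr2:74721081-74768769). The other widest peaks were at the microRNA gene Mir9-3 (chr7:79494505-79561596), the orphan nuclear receptor gene Nr2f2 (chr7:70321640-70372406), the LIM homeobox gene Lmx1b (chr2:33601229-33650892), the cyclin-dependent kinase inhibitor gene Cdkn1c (chr7:143422464-143469454) and the nuclear factor I gene Nfix (chr8:84763302-84806870). Coordinates are of mm10.

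A transcription start site (TSS) lay in 441 wide peaks (82.0%), against 29.0% of the shared peaks under 10 kb. A longer interval can hold a TSS more often, and the part of length in this contrast was not tested. The wide peaks held 621 TSSs, of which 499 belong to protein-coding genes, and 97 wide peaks held no TSS. Of their bases, 19.3% were exonic, 42.4% intronic and 38.2% between genes. All 39 Hox cluster genes of the list had their TSS in a wide peak, as did 17 of 36 Forkhead genes, 11 of 15 T-box genes, 10 of 12 LIM homeobox genes, 8 of 9 Dlx and Msx genes and 7 of 9 Pax genes. In contrast, 0 of 8 pluripotency genes did. The promoters of Pou5f1, Nanog and Sox2, which encode core pluripotency factors of ES cells, had no H3K27me3 peak or EZH2 domain over the TSS in any library. Klf4 was the exception of the 8, with an H3K27me3 peak in the second control library and an EZH2 domain in all 4 EZH2 libraries. In the first control library the median H3K27me3 promoter count of the genes in wide peaks was 362 CPM (reads on the gene scaled to the library's total on genes), against 11.8 over all genes, and in the control input the medians were 48.9 and 44.0 CPM. The first control library also set the wide peaks, so its difference follows from the choice of peaks. In the second control library, which the wide peaks had to overlap, the medians were 337 and 11.7 CPM.

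The wide peaks were rich in CpG, with a median of 2.49 CpG per 100 bp, against 2.11 in the shared peaks under 10 kb and 0.851 over the autosomes. CpG rose from 1.24 and 1.28 per 100 bp in the outermost twentieths of the wide peaks to 3.03 and 3.21 in the central ones. EZH2 domains, which hiddenDomains called on a grid of 1000 bp, covered the same central part. In the first control library they covered 79.6% and 80.7% of the central bins and 16.2% and 17.7% of the outermost bins, as the plot along the wide peaks shows.

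**Figure D1:**
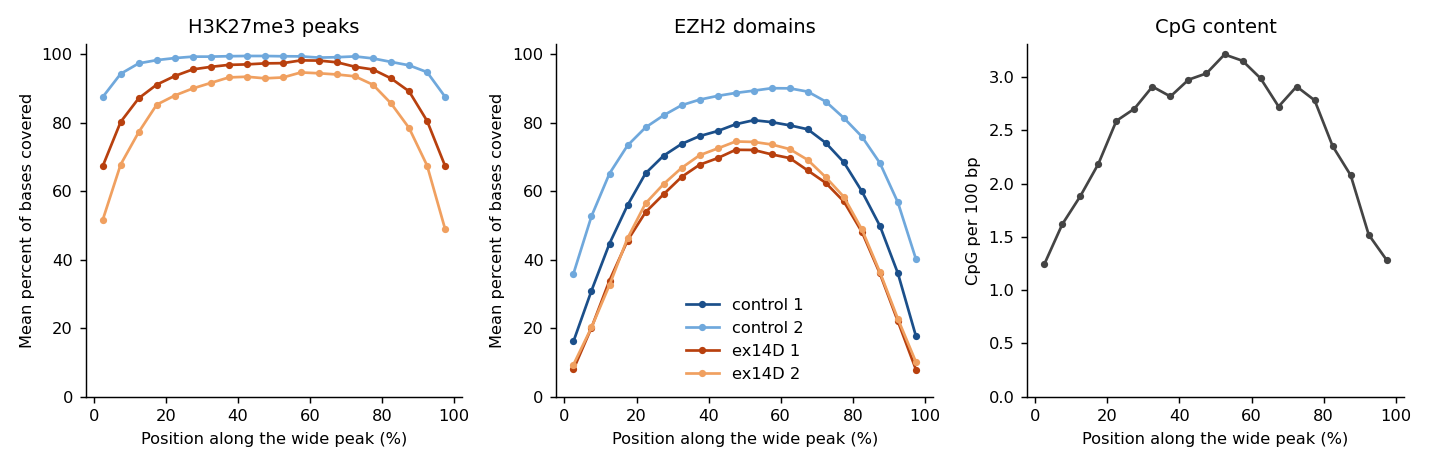
Mean coverage along the 538 wide peaks, each scaled to the same length and divided into 20 bins (x axis, position in percent): left, percent of bases in an H3K27me3 peak; middle, percent in an EZH2 domain; right, CpG per 100 bp of the reference. Each line is a library, the first control H3K27me3 library is left out because it set the ends, and both ex14D lines lie below both control lines for EZH2, with 72.1% and 74.5% against 79.6% and 88.7% just left of the centre.

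To show the sequence under these calls, stretches of 200 bp are printed from the 3 widest peaks that have both a part under an EZH2 domain in all 4 EZH2 libraries (kept) and a part under a domain in both control and neither ex14D library (not kept), each at the middle of the longest such stretch outside exons. The letters are the plus strand of GRCm38 from RefSeq, all 6 stretches are annotated as lying between genes, and capitals mark CpG.
HoxC kept (chr15:102961649-102961848): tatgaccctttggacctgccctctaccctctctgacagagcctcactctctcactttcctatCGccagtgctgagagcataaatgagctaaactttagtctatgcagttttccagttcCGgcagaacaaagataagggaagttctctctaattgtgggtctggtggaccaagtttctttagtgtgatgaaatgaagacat
HoxC not kept (chr15:103023401-103023600): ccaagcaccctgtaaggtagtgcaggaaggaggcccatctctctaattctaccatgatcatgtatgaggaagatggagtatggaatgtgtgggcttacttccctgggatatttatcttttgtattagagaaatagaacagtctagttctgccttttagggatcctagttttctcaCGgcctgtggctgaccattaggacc
HoxA kept (chr6:52254211-52254410): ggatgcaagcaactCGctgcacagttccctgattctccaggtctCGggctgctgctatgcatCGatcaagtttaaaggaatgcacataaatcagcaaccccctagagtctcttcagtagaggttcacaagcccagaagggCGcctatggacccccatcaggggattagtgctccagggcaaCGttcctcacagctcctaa
HoxA not kept (chr6:52150901-52151100): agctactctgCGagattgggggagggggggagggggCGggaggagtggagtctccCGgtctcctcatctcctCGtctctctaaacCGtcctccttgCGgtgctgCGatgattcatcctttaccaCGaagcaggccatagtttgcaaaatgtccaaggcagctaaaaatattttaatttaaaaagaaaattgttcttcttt
HoxB kept (chr11:96312081-96312280): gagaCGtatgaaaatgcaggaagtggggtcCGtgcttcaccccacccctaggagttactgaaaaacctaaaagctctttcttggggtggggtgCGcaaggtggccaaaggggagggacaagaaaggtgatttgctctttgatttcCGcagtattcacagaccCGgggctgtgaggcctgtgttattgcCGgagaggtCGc
HoxB not kept (chr11:96357401-96357600): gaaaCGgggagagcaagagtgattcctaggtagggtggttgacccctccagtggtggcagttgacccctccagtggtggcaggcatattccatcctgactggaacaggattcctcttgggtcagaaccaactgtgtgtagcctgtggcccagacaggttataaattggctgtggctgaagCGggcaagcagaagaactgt
The kept stretch had more CpG in HoxB (7 against 2) and HoxC (2 against 1) but fewer in HoxA (5 against 8). Over the 265 wide peaks with both kinds of stretch, the kept one had more CpG in 171, fewer in 70 and the same number in 24. All 6 printed stretches lay inside an H3K27me3 peak in the second control library and in both ex14D libraries.

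Fewer bases of the wide peaks were under EZH2 domains in ex14D cells. The covered share of their bases was 64.7% and 78.4% in control against 55.0% and 57.1% in ex14D, so that the genotypes did not overlap. The control libraries also differed from each other. Over the autosomes EZH2 domains spanned 18.0 and 30.4 Mb in control and 12.3 and 15.2 Mb in ex14D. An EZH2 domain touched 93.1% and 95.7% of the wide peaks in control and 91.3% and 90.9% in ex14D. With 2 libraries against 2, an exact permutation test of such a value cannot give a two-sided p below 0.333. In 292 wide peaks (54.3%) the covered share was lower in both ex14D libraries than in both control libraries, against 26.9% of all shared peaks, and it was higher in both in 0 wide peaks, against 0% of all shared peaks. Many narrower peaks had no EZH2 domain to lose. Among peaks with a domain in both control libraries the share with lower coverage was 58.4% of 500 wide peaks and 58.4% of 4084 narrower peaks, so this measure was not particular to wide peaks.

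The wide peaks differed from the narrower ones in that a domain was seldom lost whole. Of the wide peaks with a domain in both control libraries, 96.0% had one in both ex14D libraries and 2.00% in neither. In the peaks under 10 kb these shares were 56.9% and 28.2%. The narrower peaks were not alike. Of all peaks of 5 to 10 kb, 89.4% and 93.4% had a domain in control and 80.3% and 77.3% in ex14D. Under 2 kb these values were 15.8% and 31.5% in control and 5.18% and 4.14% in ex14D. Wide peaks are longer targets for an overlap of 1 bp, and the part of their length in this contrast was not tested. The 10 wide peaks that lost the domain whole included those holding the TSSs of the corepressor gene Tle3, the retinoic acid-binding protein gene Crabp2, the laminin gene Lamc3 and Mapk8ip2. At Crabp2, EZH2 domains covered 52.6% and 100% of the wide peak in control and 0% in both ex14D libraries, while H3K27me3 peaks still covered 93.9% and 92.7% of it.

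EZH2 domains covered most of each Hox cluster in both genotypes. They covered 97.3% and 99.5% of the HoxC peak in control and 90.0% and 91.4% in ex14D. The corresponding values were 96.6%, 98.1%, 90.5% and 94.3% for HoxA and 92.4%, 100%, 86.3% and 90.1% for HoxB. In each of these 3 clusters both ex14D values lay below both control values. The HoxD peak from Hoxd4 to Hoxd1 went from 81.6% and 94.2% to 75.3% in both ex14D libraries. The genotypes overlapped at the other HoxD peak, where control had 85.3% and 98.3% and ex14D had 84.0% and 88.6%. They overlapped as well at the separate wide peak of Hoxb13, where control had 80.2% and 94.8% and ex14D had 65.6% and 92.4%. At Cdkn1c the genotypes overlapped, with 46.8% and 74.5% in control and 46.8% and 44.7% in ex14D.

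Bases that lost an EZH2 domain held fewer CpG than bases that kept one. Bases under an EZH2 domain in both control and both ex14D libraries (4855 kb) held 3.58 CpG per 100 bp. Bases under a domain in both control and neither ex14D library (657 kb) held 1.77, and bases under no domain in any library (1979 kb) held 1.03. Of the bases that had lost the domain, 98.3% and 92.8% were still in an H3K27me3 peak of the 2 ex14D libraries. Bases under no EZH2 domain were in an ex14D H3K27me3 peak less often, at 70.8% and 51.8%, against 91.1% in the second control library. That control library had the most bases in peaks over the autosomes (61.4 Mb, against 46.0 and 31.8 Mb in ex14D). The difference is therefore not read as a loss in ex14D.

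In 21 wide peaks no library had an EZH2 domain. They had a median of 1.01 CpG per 100 bp, and 9.52% held a TSS, against 88.8% of the 480 wide peaks with a domain in every library. H3K27me3 peaks covered 84.8% and 72.1% of their bases in ex14D, against 95.5% in the second control library, with the same limit of that library. One of them, between genes on chromosome 12 (chr12:80741318-80752428), was the wide peak with the least H3K27me3 left, with 7.14% and 0% of its bases covered in ex14D and 100% in the second control library.

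H3K27me3 peaks remained over nearly every wide peak in ex14D cells. They covered 97.8% of the bases in the second control library, 92.5% in the first ex14D library and 86.1% in the second. In ex14D, 1 of the 538 wide peaks had no peak in the second library and 0 had none in the first. The peaks under 10 kb had 76.7% and 63.5% of their bases covered in ex14D and 91.9% in the second control library. Coverage was lower in both ex14D libraries than in the second control library in 339 wide peaks (63.0%), against 60.2% of all shared peaks, and higher in 17 (3.16%), against 3.2%, so these shares were near those of all shared peaks.

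The lower coverage in ex14D did not hold against the other control library. The second control library had 61.4 Mb in 19639 autosomal peaks and the first had 37.1 Mb in 12100, against 46.0 and 31.8 Mb in ex14D. When wide peaks were chosen in the second control library instead (978 peaks), the first control library covered 77.7% of their bases and the ex14D libraries covered 83.4% and 73.5%, on either side of it. The same held for splitting. Of the 538 wide peaks, 40 were met by more than 1 peak in the second control library and 78 and 96 in the ex14D libraries, but of the 978 chosen in the second control library 46.1% were split in the first control library and 30.1% and 31.8% in ex14D. The lower coverage and more frequent splitting in ex14D therefore did not hold up against the difference between the control libraries. The reads counted on promoters numbered 594289 and 937207 in the control and 1450937 and 1248018 in the ex14D H3K27me3 libraries, so the control library with more reads had more peaks, and the part of depth in the peak calls was not tested.

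**Figure D2:**
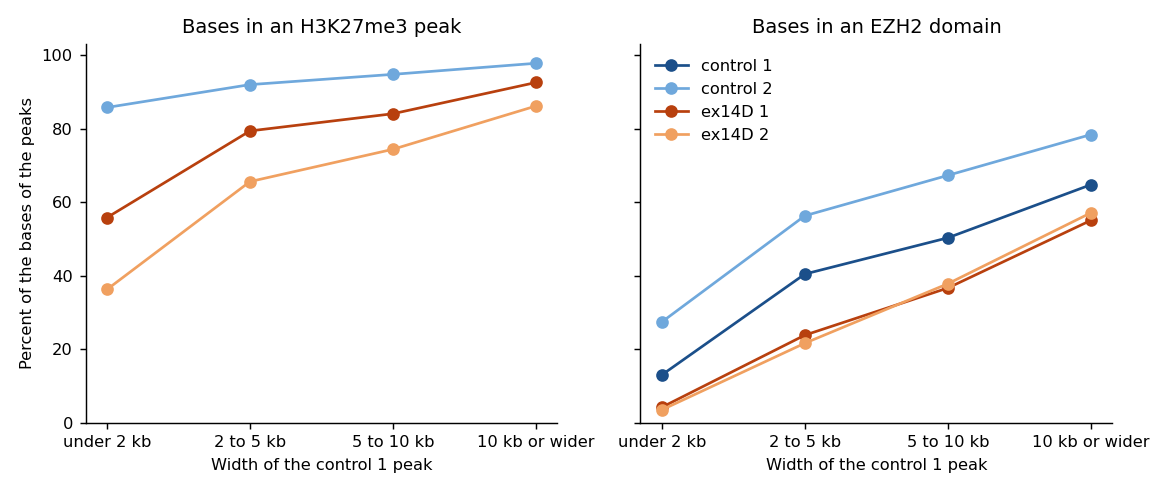
Percent of the bases of the shared peaks (y axis) that lay in an H3K27me3 peak (left) or in an EZH2 domain (right), by the width of the peak in the first control library (x axis); each line is a library, and that library is left out on the left because it set the peaks. For peaks of 10 kb or wider the H3K27me3 values are 97.8%, 92.5% and 86.1% and the EZH2 values 64.7%, 78.4%, 55.0% and 57.1%, and the gap on the left is not seen against the first control library when the peaks are chosen in the second.

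Where bases of a wide peak were outside the peaks of an ex14D library, 75.6% and 75.5% of them lay at the outer ends, and in the second control library 66.8% did. The 661 kb in a peak of neither ex14D library held 1.13 CpG per 100 bp, and the 214 kb outside the peaks of the second control library held 1.29, against 2.65 in the bases covered in both ex14D libraries. Losing the CpG-poor ends was thus shared by the comparison of the control libraries with each other. The wide peaks with the lowest ex14D coverage after that on chromosome 12 were one within D930007P13Rik (chr15:103113813-103125914; 38.4% and 18.0%), one at the glutamate receptor gene Grin1 (chr2:25310431-25321837; 43.8% and 24.9%), one at the palmitoyltransferase gene Zdhhc22 (chr12:86975413-86991885; 35.6% and 39.2%) and one without a TSS (chr2:181140849-181151910; 48.5% and 30.3%). In the second control library these 4 were covered to between 77.3% and 95.8%. By the number of peaks in the ex14D library with fewer, the wide peak in most pieces was that of the transcription factor gene Sp6 (chr11:97004116-97021757), with 3 and 4 peaks in the ex14D libraries and 1 in the second control library. The wide peak at the neurogenic bHLH gene Neurod2 (chr11:98311108-98354236) was met by 3 peaks in each ex14D library. The next 3 by this count, with ties set by the other library and then by width, held no TSS (chr19:6490049-6510466, chr4:65265815-65282492 and chr7:79571050-79600080).

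The peak caller's fold enrichment could not be read as the enrichment of a wide peak. Its median over the wide peaks was 3.62 and 3.28 for control and 5.73 and 6.20 for ex14D. However, over the 441 wide peaks with a TSS its rank correlation with the promoter count in the same library was 0.0878 in the first control library, and between 0.0724 and 0.0811 over all peaks with a TSS in the 4 libraries. The width of a peak, in contrast, followed that count with rank correlations of 0.648 to 0.678. Fold enrichment of the same wide peak in the 2 control libraries had a rank correlation of 0.237, and 0.467 in the ex14D libraries, whereas EZH2 coverage had 0.780 and 0.890. These correlations are across peaks of a library and are descriptions. The higher medians in ex14D are therefore given as the deposited values only, and the counts of reads at promoters are used in their place.

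EZH2 counts on the genes of the wide peaks were lower in ex14D cells. The EZH2 counts of the deposited files follow gene length and are taken as counts on whole genes. Every EZH2 library lists 259 of the 621 genes at 0, as it does 10575 of all 24500 genes, and 362 were tested. A listed 0 is not read as absence of EZH2, since Cdkn2c is listed at 0 while an EZH2 domain lay over its TSS in all 4 libraries. EZH2 fell at 270 of these 362 genes (74.6%), against 7.88% of the 13401 genes tested (edgeR quasi-likelihood test, Benjamini-Hochberg adjusted p under 0.05). It rose at 0 of them, against 0.0522% of all genes tested, with 0 at an unadjusted p under 0.05 and 0 by DESeq2. The median log2 fold change was -0.67, against 0.02 over all genes tested. Of 1736 genes with a TSS in a narrower shared peak, 568 fell (32.7%), with a median of -0.16. The calls did not hold without either control library, where the medians were -0.67 and -0.70. Without the first and the second ex14D library the medians were -0.92 and -0.48. By chi-square over genes, the ex14D EZH2 libraries differed more from each other than the control libraries, at 3.95 against 1.48 per degree of freedom.

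The fall was larger where more of the gene lay in the wide peak. The 176 tested genes that lie wholly inside had a median log2 fold change of -0.85, and the 104 genes with less than 25% of their length inside had -0.35. Reads on the rest of a gene are part of its count. Over the gene families, all 8 tested bHLH genes fell, as did all 6 Dlx and Msx genes, all 5 Pax genes and all 3 Iroquois genes, whose median was -1.15. Of 16 tested Hox genes 13 fell, with a median of -0.63, and of 11 Forkhead genes 4 fell, with a median of -0.60.

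The 5 genes with the largest falls in EZH2 were Slc32a1, 9130024F11Rik, Gbx2, Fzd8 and Gdf7. Slc32a1, which encodes the vesicular GABA transporter, had 81.6 and 77.5 CPM in control and 22.4 and 15.0 CPM in ex14D (log2 fold change -2.10 ± 0.15 SE, adjusted p = 0.00325, edgeR). Gbx2, a homeobox gene of the anterior hindbrain, had 56.8 and 65.3 CPM in control and 21.0 and 14.5 CPM in ex14D (-1.80 ± 0.15, adjusted p = 0.00325, edgeR). In both genes each ex14D library lay below each control library, which was a condition of being named. Gdf7, a BMP family ligand of the roof plate, fell by 1.70 ± 0.18 on the log2 scale, and the Wnt receptor gene Fzd8 fell by 1.73 ± 0.23. The uncharacterized gene 9130024F11Rik fell by 1.91 ± 0.19. Without either control library these 5 genes did not pass the adjusted threshold.

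**Figure D3:**
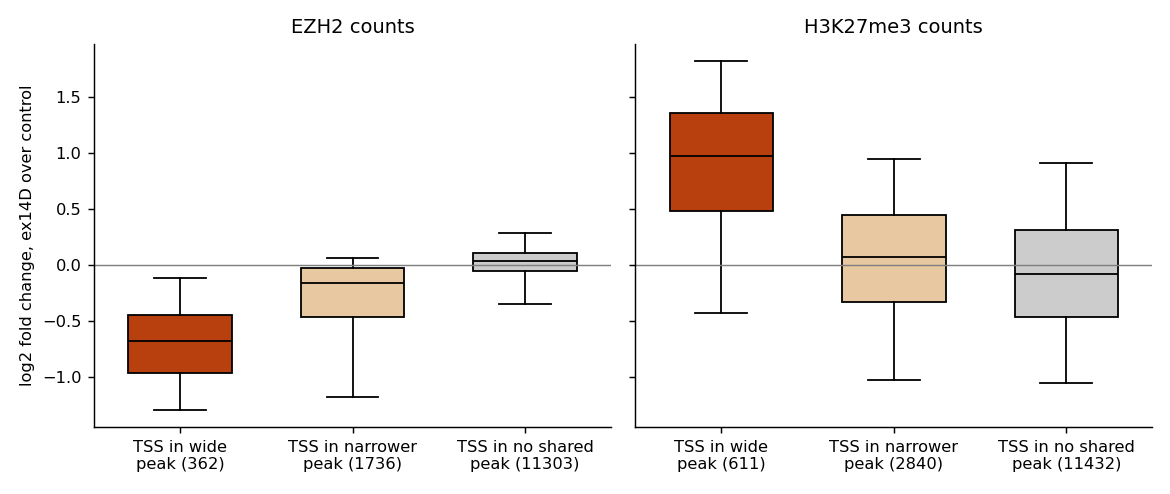
Log2 fold change of ex14D over control (y axis) in EZH2 counts (left) and H3K27me3 promoter counts (right) for genes with a TSS in a wide peak, in a narrower shared peak or in no shared autosomal peak (numbers of genes in parentheses). Boxes give the quartiles and the median, whiskers the 5th and 95th percentiles; the medians of the wide-peak genes are -0.67 for EZH2 and 0.97 for H3K27me3.

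H3K27me3 counts at the promoters of the wide-peak genes were higher in ex14D cells relative to the rest of the promoters. These counts are reads in 1 kb around the TSS, unlike the EZH2 counts on whole genes. Of 611 tested genes with a TSS in a wide peak, 403 rose (66.0%) and 17 fell (2.78%), against 5.85% and 3.19% of the 14883 genes tested (edgeR quasi-likelihood test, adjusted p under 0.05). Their median log2 fold change was 0.97, against -0.02 over all genes tested and 0.07 over the genes of narrower shared peaks, of which 349 of 2840 rose (12.3%). The first control library also set the wide peaks, and without it 401 genes rose and 11 fell, with a median of 0.99. Without the second control library 169 rose and 8 fell, with a median of 0.89.

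The scale of this comparison is relative. TMM scaling sets the bulk of the promoters to no change. Scaling by the total on promoters alone moved the median over all genes to -0.47 and that of the wide-peak genes to 0.52, and then 284 genes rose and 44 fell. The share of reads that fell on promoters was 5.65% and 5.98% in control and 7.58% and 6.86% in ex14D. A change in the total H3K27me3 of the cells cannot be seen in these counts, which have no external standard, and fewer marked cells and less mark per cell cannot be told apart.

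The rise was largest deep inside the wide peaks. The median log2 fold change was 0.17 for the 14 tested genes with a TSS under 1000 bp from the nearer end of the wide peak and 0.10 for the 37 genes at 1000 to 2000 bp. It was 0.65 at 2000 to 4000 bp, 0.94 at 4000 to 8000 bp and 1.38 for the 166 genes at 8000 bp or more. At 8000 bp or more 148 genes rose and 1 fell, and under 2000 bp 10 rose and 6 fell. With the 6 wide peaks that hold Hox genes left out, the median at 8000 bp or more was 1.23. Genes of the same wide peak share it and are not independent, so these medians are a description. A TSS can lie 8000 bp or more from both ends only in the wider of these peaks, so depth and peak width were not separated. The first control library set the ends and is also part of the fold change.

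**Figure D4:**
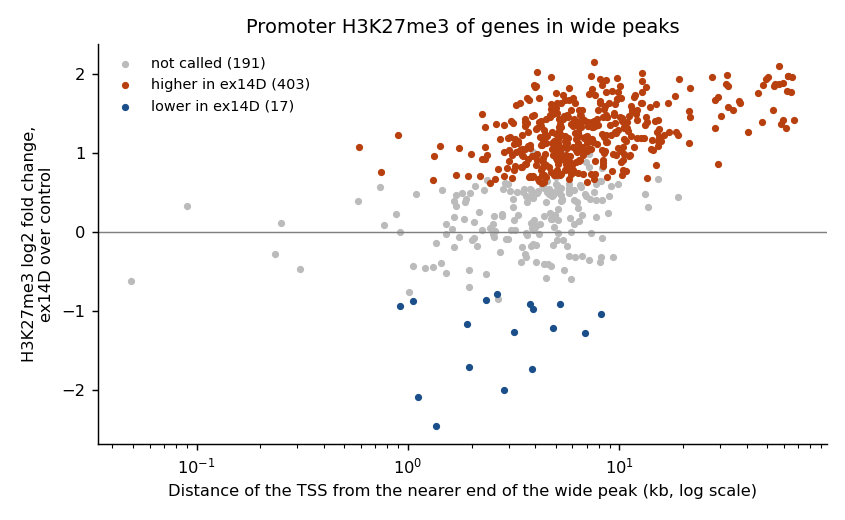
H3K27me3 log2 fold change of ex14D over control (y axis) against the distance of the TSS from the nearer end of its wide peak (x axis, kb, log scale) for the 611 tested genes. Points are genes, coloured by the edgeR call (403 higher, 17 lower, the rest not called), and the medians go from 0.17 under 1000 bp to 1.38 at 8000 bp or more.

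Of the developmental families, 36 of 39 Hox genes rose, with a median of 1.57, as did all 17 Forkhead genes with a median of 1.37, 9 of 10 LIM homeobox genes, all 8 Nkx genes, all 8 Dlx and Msx genes, 8 of 9 Wnt ligand genes and 6 of 7 Pax genes. In these families 0 genes fell in H3K27me3. Hoxa10, a posterior patterning gene, had 565 and 544 CPM in control and 1438 and 1977 CPM in ex14D (log2 fold change 1.62 ± 0.21 SE, adjusted p = 8.62e-06, edgeR). Over the same gene EZH2 was lower, with 301 and 310 CPM in control and 250 and 191 CPM in ex14D (-0.47 ± 0.11, adjusted p = 0.0356, edgeR). The 2 readouts, EZH2 over the whole gene and H3K27me3 around the TSS, thus went in opposite directions at Hoxa10 with no overlap between genotypes. Hoxd9 had an H3K27me3 log2 fold change of 1.82 ± 0.21 and an EZH2 value of -0.54 ± 0.14 that did not pass the threshold (adjusted p = 0.0587, edgeR). Pax7, a regulator of muscle and neural crest, rose by 1.20 ± 0.21 in H3K27me3 and fell by 0.44 ± 0.08 in EZH2 on the log2 scale, and its wide peak (chr4:139812030-139848300) was covered to 96.4% and 95.6% in ex14D. At all 3 genes both ex14D libraries had a higher H3K27me3 CPM than either control library, on the relative scale of these counts. The study's ChIP-PCR found less H3K27me3 at these genes in ex14D cells, and its Western blot found a lower total level of H3K27me3. The counts here are relative and cannot show a fall in the total, so they and the ChIP-PCR are unlike measures. Why their directions differ was not tested.

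The 5 largest rises were at Pcdh7, Hoxb3, Pcdh10, Evx2 and Hoxa11. Hoxb3 had 355 and 422 CPM in control and 1274 and 2049 CPM in ex14D (2.09 ± 0.23, adjusted p = 2.74e-06, edgeR). Evx2, the homeobox gene beside HoxD, had 628 and 496 CPM in control and 1869 and 2627 CPM in ex14D, and Hoxa11 had 230 and 195 CPM against 681 and 994. The protocadherin genes Pcdh7 and Pcdh10, which encode cell adhesion molecules of neurons, rose from 60.9 and 47.1 CPM to 204 and 268 and from 29.0 and 43.3 CPM to 118 and 184. In all 5 genes every ex14D library was above every control library, which was a condition of being named. The call at Pcdh10 was lost without the second control library.

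Of the 17 genes that fell in H3K27me3, 9 had lost the ex14D peak over the TSS in at least 1 library. An ex14D peak covered the TSS in both libraries at 8 of them, in 1 library at 4 and in neither at 5. Over all 621 genes the numbers were 598, 11 and 12, and 0 of the genes without a peak in both ex14D libraries rose, of which 22 were tested. The ex14D peaks and the promoter counts come from the same reads, so this match is a description and not separate evidence. Cdkn2c, which encodes the cell cycle inhibitor p18, had 178 and 134 CPM in control and 44.6 and 26.9 CPM in ex14D (-2.10 ± 0.29, adjusted p = 2.56e-05, edgeR). Its TSS lies 1113 bp from the end of the wide peak (chr4:109650509-109667869), in neither ex14D peak, as the map of intervals shows. Rnf220, which encodes a ubiquitin ligase, had 346 and 115 CPM in control and 68.6 and 42.8 CPM in ex14D (adjusted p = 0.000306, edgeR), and DESeq2 did not call it. Tle3 had 171 and 108 CPM against 52.0 and 29.9, and was not called without the second ex14D library, and neither was Mir132. The microRNA genes Mir132 and Mir6991 fell by 2.46 ± 0.74 and 1.72 ± 0.25 on the log2 scale, with Mir132 at 9.14 and 19.8 CPM in control and 4.96 and 0 in ex14D.

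**Figure D5:**
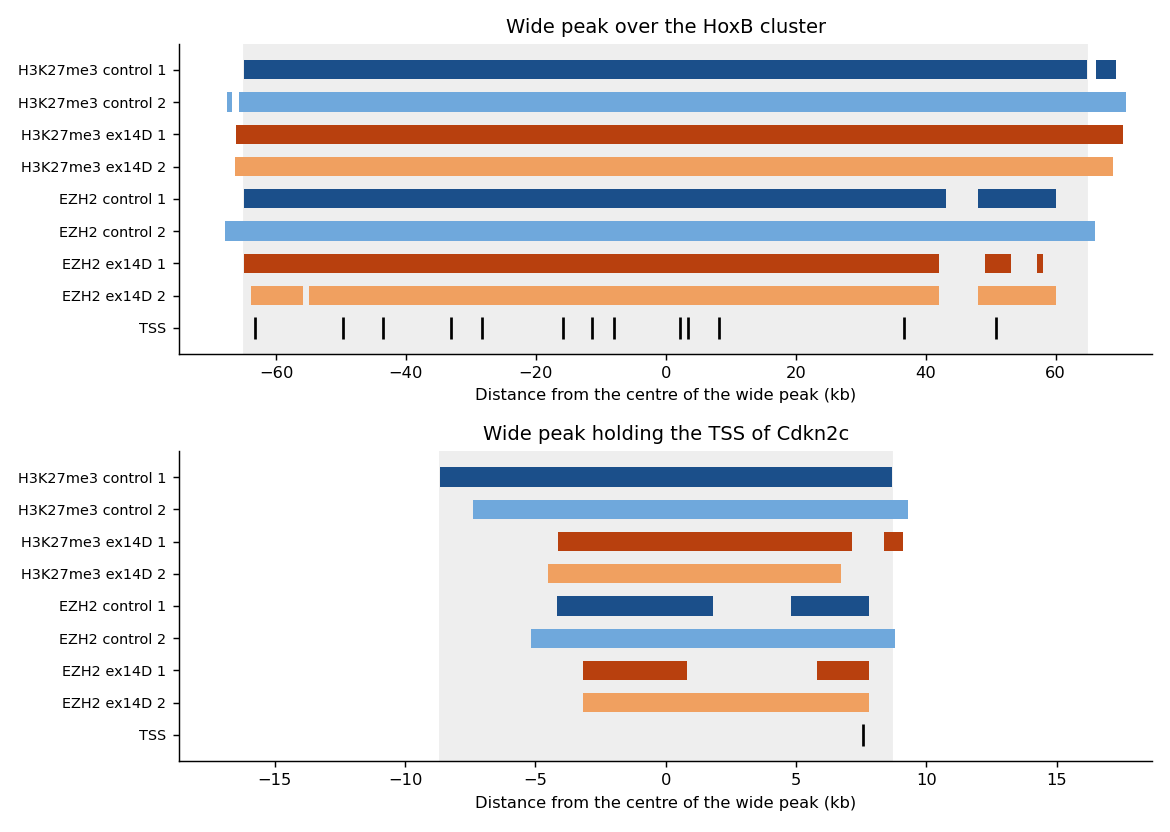
H3K27me3 peaks and EZH2 domains of each library (bars) and TSSs (ticks) around the wide peaks over the HoxB cluster (upper) and at Cdkn2c (lower), by distance from the centre of the wide peak in kb (x axis); grey marks the wide peak. The HoxB peak is covered to 100% in both ex14D libraries, and the Cdkn2c peak to 66.7% and 64.8%, with its TSS outside the ex14D peaks.

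The 200 bases before the TSS are printed for 5 of the named genes whose promoter holds no exon, to show how their CpG content varied. They are read from GRCm38 with RefSeq start sites, 5′ to 3′ in the direction of the gene, with CpG in capitals. Gbx2 and Gdf7 are among the genes where EZH2 fell, Cdkn2c and Rnf220 among those where H3K27me3 fell, and Hoxb3 among those where it rose.
Gbx2 (chr1:89931177-89931376, minus strand): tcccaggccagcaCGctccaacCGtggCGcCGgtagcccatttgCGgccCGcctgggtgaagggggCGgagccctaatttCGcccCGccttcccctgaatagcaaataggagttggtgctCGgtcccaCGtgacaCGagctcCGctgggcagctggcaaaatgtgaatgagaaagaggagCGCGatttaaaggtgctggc
Gdf7 (chr12:8301955-8302154, minus strand): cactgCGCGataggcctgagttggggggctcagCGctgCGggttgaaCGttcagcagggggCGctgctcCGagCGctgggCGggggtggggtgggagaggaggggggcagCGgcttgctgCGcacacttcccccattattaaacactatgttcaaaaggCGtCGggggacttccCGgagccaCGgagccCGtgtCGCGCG
Cdkn2c (chr4:109666757-109666956, minus strand): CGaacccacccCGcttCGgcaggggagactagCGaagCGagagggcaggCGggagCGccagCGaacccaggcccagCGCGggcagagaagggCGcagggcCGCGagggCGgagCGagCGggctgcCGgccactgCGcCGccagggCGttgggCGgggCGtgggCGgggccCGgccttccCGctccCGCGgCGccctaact
Rnf220 (chr4:117497053-117497252, minus strand): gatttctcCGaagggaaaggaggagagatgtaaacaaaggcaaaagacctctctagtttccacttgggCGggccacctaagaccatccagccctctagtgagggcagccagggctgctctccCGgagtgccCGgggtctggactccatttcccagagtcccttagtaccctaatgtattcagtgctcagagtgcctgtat
Hoxb3 (chr11:96322926-96323125, plus strand): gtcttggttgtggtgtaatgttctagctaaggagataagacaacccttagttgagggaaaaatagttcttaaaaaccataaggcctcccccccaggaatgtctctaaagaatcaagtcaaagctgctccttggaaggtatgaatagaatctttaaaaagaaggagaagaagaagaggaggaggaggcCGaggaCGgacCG
They hold 15, 19, 28, 4 and 3 CpG in this order. The median was 13 over the 621 genes of the wide peaks and 8 over 23234 autosomal genes.

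Of the 355 genes tested for both antibodies, 178 fell in EZH2 and rose in H3K27me3, 7 fell in both, 82 fell in EZH2 without a call in H3K27me3 and 66 rose in H3K27me3 without a call in EZH2. EZH2 was counted over the whole gene and H3K27me3 in 1 kb around the TSS, so they do not cover the same stretch. H3K27me3 rose at 178 of the 267 genes that fell in EZH2 (66.7%) and at 66 of the 88 genes without an EZH2 call, so a rise was not more frequent where EZH2 fell. Cdkn1c, which encodes an imprinted cell cycle inhibitor, was among the 178, with EZH2 at 112 and 114 CPM in control and 66.9 and 43.7 CPM in ex14D and H3K27me3 at 465 and 372 CPM against 775 and 743. Nr2f2 was another, with EZH2 falling by 0.96 ± 0.14 on the log2 scale and H3K27me3 rising by 1.12 ± 0.21. Fzd8 fell in both, with an H3K27me3 log2 fold change of -0.97 ± 0.26. At Gbx2, Slc32a1 and Gdf7 H3K27me3 had log2 fold changes of -0.32 ± 0.23, 0.05 ± 0.40 and 0.15 ± 0.22, and none passed the threshold.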

How the data were processed

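H3K27me3 and EZH2 ChIP-seq libraries of control and ex14D-Ezh2 ES cells (2 per antibody and genotype, 1 input per genotype) were grouped by the deposited labels. The authors' methods name Bowtie, and MACS2 and hiddenDomains with 200 bp bins, although nearly all deposited EZH2 domains end on multiples of 1000 bp, and the submitters' processing notes name mm10, Trimmomatic, Bowtie2, MACS2, ChIPseeker and HTSeq without versions. As deposited by the authors, the counts are unnormalized whole reads for each gene, and reads on no gene stayed out of library sizes. Reads on genes ranged from 594289 to 1450937 (H3K27me3) and from 13628137 to 18403892 (EZH2). The fold enrichment ratio, −log10 p-value and −log10 q-value of a peak were deposited by the authors from MACS2, and the peak score was deposited but not used. Deposited H3K27me3 domains run past the ends of GRCm38 chromosomes and were not used here.

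Members and gene lists were chosen with earlier results of these data known. Overlap and coverage were computed in Python 3.11.15, with a minimum overlap of 1 bp. The RefSeq annotation of GRCm38.p6 placed 24347 of 24500 genes. Counts were compared with edgeR 4.0.16 in R 4.3.3 (TMM, filterByExpr, glmQLFit and glmQLFTest, Benjamini-Hochberg over all genes, threshold 0.05), with DESeq2 1.42.0 as an alternative. Printed CPM of the genotype comparison are TMM-normalized, and standard errors are the log2 fold change over the square root of F. The edgeR script was tested on simulated data. Values over regions have no test. Named regions were the 10 widest, the 5 with the lowest mean ex14D coverage, the 5 with most ex14D peaks in the library with fewer and those with the TSS of a gene used for ChIP-PCR in the study. For each antibody the text names the 5 calls that fell most and the 5 that rose most, among those whose average log2 CPM reached 3 and whose ex14D values were all above or all below control. Family members and Crabp2, Lamc3, Mapk8ip2 and Nr2f2 were named after their values were seen. Alternatives covered width, overlap, the library that sets the peaks, peak stringency, joining, scaling, test, filter, replicate block and each library left out.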

Additional observations from a re-analysis of the deposited data

How the results depend on the processing

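The coverage of wide peaks in ex14D, as the mean of the ex14D libraries minus the second control library, was -8.42 percentage points. It was 0.737 when the wide peaks were chosen in the second control library and set against the first, with the sign kept as ex14D minus control. In an alternative added after seeing the data, with the wide peaks chosen in the first ex14D library, the second covered 87.1% of their bases and the controls 82.2% and 95%, so that it lay between them and -1.52 from their mean. The difference from the second control library was -13.5 with peaks within 3000 bp joined, and -5.22 to -11.6 without either ex14D library. The share of wide peaks in pieces, 8.74 points higher in ex14D, was 5.97 points higher with peaks of q under 0.001 only, and it was -15.2 with the wide peaks chosen in the second control library, also added after seeing the data. The share with an EZH2 domain, -3.35 points, was -5.28 at 8000 bp, -1.94 at 15000 bp and -1.95 when a domain had to lie with more of its length inside. The q filter uses a column of the peak caller that, like fold enrichment, hardly followed the promoter counts. Median fold enrichment, 2.52 higher in ex14D, was 2.28 to 2.75 higher without each library in turn and 2.80 higher with the highest value in a wide peak.

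For EZH2, without either control library the number of genes that fell dropped from 270 to 0, and over the 4 libraries left out it was 0 to 339 with medians of -0.48 to -0.92. For H3K27me3, scaling by library size alone gave 44 genes that fell in place of 17, and without each library in turn 3 to 11 fell and 169 to 401 rose. A lone library left in a genotype is assumed to vary like the others. With a replicate block, EZH2 fell at 252 genes and H3K27me3 rose at 375 and fell at 13, so the block moved no count by over 1.5 times. The numbers did not pair the libraries: the deviations of same-numbered libraries correlated at -0.025 for EZH2 and -0.094 for H3K27me3 over all genes. With the pairing crossed, added after seeing the data, 275 genes fell in EZH2 and 440 rose and 19 fell in H3K27me3. For the 5 EZH2 and 10 H3K27me3 genes with the largest falls and rises, no alternative that was run reversed a direction. These genes were chosen with ex14D values all above or all below control, so the choice itself favoured a kept direction. The other named genes were not refitted. Mir132 rests on few reads.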
